A study of Rattus norvegicus with 23 samples.

Results

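Microglia from neonatal rats exposed to hypoxia-ischemia without a bacterial stimulus (NaCl/HI) were compared with microglia of sham-operated pups of the same age (Sham) over all 20301 genes of the deposited table. The comparison used 12 of the 23 samples of the series, 6 NaCl/HI and 6 Sham, assigned by their titles; the remaining 5 LPS and 6 LPS/HI samples served for the shared estimate of the spread and for 1 side comparison. All pups were Wistar rats of both sexes, operated on postnatal day 7 and killed 24 h later. NaCl/HI pups had received 0.9% NaCl, had the left common carotid artery tied and then breathed 8% oxygen for 50 min. Sham pups had a neck incision under isoflurane, with no ligation, no hypoxia and no injection listed. The LPS and LPS/HI pups had received 0.1 mg/kg lipopolysaccharide before a sham operation or before HI. For Sham and LPS, a sample was the whole brain of 1 pup, whereas an NaCl/HI or LPS/HI sample pooled the hemispheres of 2 pups on the ligated side. Hypoxia-ischemia, the injection, the tissue taken and the pooling of pups thus changed together and cannot be told apart in these data.

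Microglia are the resident macrophages of the brain. They survey the tissue, clear dying cells and synapses, and in the neonatal brain they still divide. In damaged, demyelinating or degenerating tissue they take up a state often called disease-associated, in which genes for lipid handling, lysosomal digestion and adhesion are high and some homeostatic genes are low. After neonatal HI they meet dying neurons in the hemisphere on the ligated side, where low blood flow and low oxygen coincide. Here they were collected with magnetic beads against CD11b/c, a surface antigen that monocytes, neutrophils and border macrophages carry as well.

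The values are log2 expression values after the regularized log transformation (rlog), which draws weakly counted genes toward their mean, and the authors had removed 3 surrogate variables from them. Differences are therefore log2 differences of these values, and the depth behind each library is unknown. Library medians lay between 7.75 and 7.82. The homeostatic microglial markers P2ry12 and Tmem119 were above these medians in all 12 samples. This does not by itself set microglia apart from other cells. The mean of the endothelial markers was above the medians too, at 10.49 or more in Sham and 10.45 or more in NaCl/HI. P2ry12, the ADP receptor by which microglia sense injury, lay between 13.89 and 14.41 in Sham (median 14.06) and between 13.65 and 14.06 in NaCl/HI (median 13.91), so the ranges overlapped. Tmem119, a microglial membrane protein, spanned 11.97 to 13.20 in Sham and 12.33 to 12.77 in NaCl/HI.

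The difference between the groups was small for nearly all genes. A gene was called when its fold change exceeded 2 and its adjusted p was under 0.05 (limma, Benjamini-Hochberg over all genes). Of the genes tested, 1 was called higher in NaCl/HI, which is 0.00493% of the table, and 0 were called lower. By adjusted p alone, 2 genes were higher (0.00985%) and 0 lower. The exact Wilcoxon rank-sum test called 0 in either direction with the same adjustment, but 6 against 6 samples cannot give a p below 0.00216, which became 0.213 after adjustment, so this test could call no gene here. At an unadjusted p under 0.05, 1488 genes were higher (7.33%) and 1517 lower (7.47%). The 6 NaCl/HI values lay entirely above the 6 Sham values in 106 genes (0.522%) and entirely below them in 100 (0.493%). A fold change above 2, at any p, was seen in 24 genes (0.118%).

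The called gene was Gpnmb, which encodes a transmembrane glycoprotein of phagocytes laden with lipid or debris. In Sham it lay between 12.09 and 12.58 (median 12.40), and in NaCl/HI between 12.51 and 13.84 (median 13.49). Of the NaCl/HI samples, 5 lay at 13.37 or above and apart from all Sham samples, and replicate 4, at 12.51, lay within the Sham range. The means were 12.38 ± 0.17 in Sham and 13.40 ± 0.47 in NaCl/HI (SD, n = 6 each), a difference of 1.02 (SE 0.16, limma adjusted p = 0.035), or 2.03-fold. All 6 NaCl/HI samples exceeded the Sham mean. The library names run from 1 to 23 without a break. They were split where the order of the groups starts again, into 1 to 12 and 13 to 23, here called the first and second library series. The difference of Gpnmb was 1.13 in the first and 0.91 in the second. Its call depended on single libraries: when the 23 libraries were left out in turn, Gpnmb stayed called in 6 fits (without LPS replicates 3, 4 or 5, LPS/HI replicates 4 or 5, or NaCl/HI replicate 4) and lost its call in the other 17, with differences from 0.93 to 1.20 and adjusted p from 2.75e-05 to 0.166. It also lost its call without a variance trend (adjusted p = 0.0903), with robust variances (adjusted p = 0.0797) and within the second library series alone (adjusted p = 0.817).

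Fabp3, a carrier of fatty acids in the cytosol, passed the adjusted threshold with a smaller fold change. It varied little in Sham, from 6.59 to 6.67 (median 6.65), and ran from 6.90 to 7.38 in NaCl/HI (median 7.17). The groups did not overlap, replicate 4 included. The difference was 0.52 (SE 0.08, limma adjusted p = 0.035), with 0.51 in the first library series and 0.54 in the second. Fabp3, like Gpnmb, depended on single libraries, since it passed in the same 6 of the 23 fits that left out 1 library and not in the other 17, with differences from 0.48 to 0.58 and limma adjusted p from 0.00146 to 0.166. It did not pass without a variance trend (adjusted p = 0.0739), with robust variances (adjusted p = 0.0504), or within the first (adjusted p = 0.076) or second library series alone (adjusted p = 0.817).

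**Figure D1:**
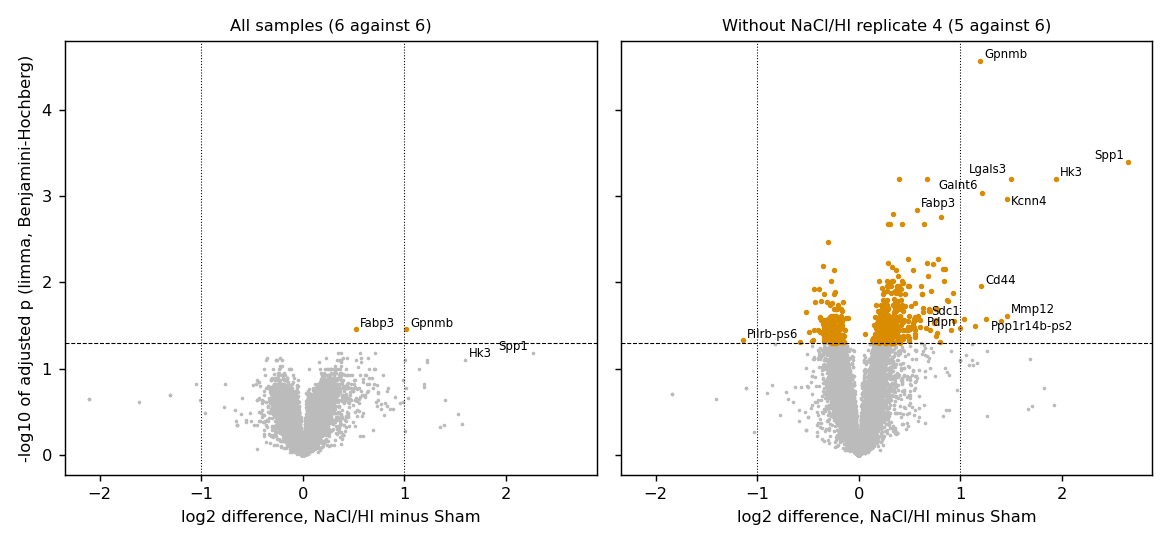
Log2 difference of NaCl/HI minus Sham (x axis) against the −log10 of the adjusted p (limma, y axis) for all genes, with all 12 samples on the left and without NaCl/HI replicate 4 on the right. Orange points pass an adjusted p of 0.05 (dashed line) and dotted lines mark a fold change of 2; 2 genes pass on the left, and 385 higher and 171 lower genes on the right.

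NaCl/HI replicate 4 lay near Sham over the whole table. Each sample was placed on the axis between both group means, computed without the sample itself, where 0 is the Sham mean and 1 the NaCl/HI mean. The Sham samples lay between -0.022 and 0.351. Replicate 4 lay at 0.0426, within that range, while the other NaCl/HI samples lay at 1.16, 1.05, 0.788, 0.974 and 0.533 for replicates 1, 2, 3, 5 and 6. Replicate 6 was thus the next closest to Sham, but outside the Sham range. Over the 25% most variable genes, replicate 4 lay at 0.0585 against -0.0816 to 0.379 for Sham, and with all genes scaled to unit variance at 0.0264 against 0.128 to 0.386.

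Genes were also picked without the sample in question, but against the same Sham samples, so this reading is not independent of the position above. For each NaCl/HI sample, the 200 genes with the smallest p between the other NaCl/HI samples and Sham were taken, and the sample's own difference from Sham was read in them. Replicate 4 showed 1.58% of the mean difference of the others and lay on their side in 97 of the 200 genes. The other samples showed between 60.1% and 110% of it, on the same side in 173 to 196 genes. The shared Sham samples by themselves favour the same side, and no value for a sample without a difference was computed. By its title and its tissue, replicate 4 did not differ from the rest, and why it lay near Sham was not tested. Its root mean square distance to the Sham mean was 0.141, and that of the Sham samples to the mean of their group, without the sample itself, 0.119 to 0.152.

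**Figure D2:**
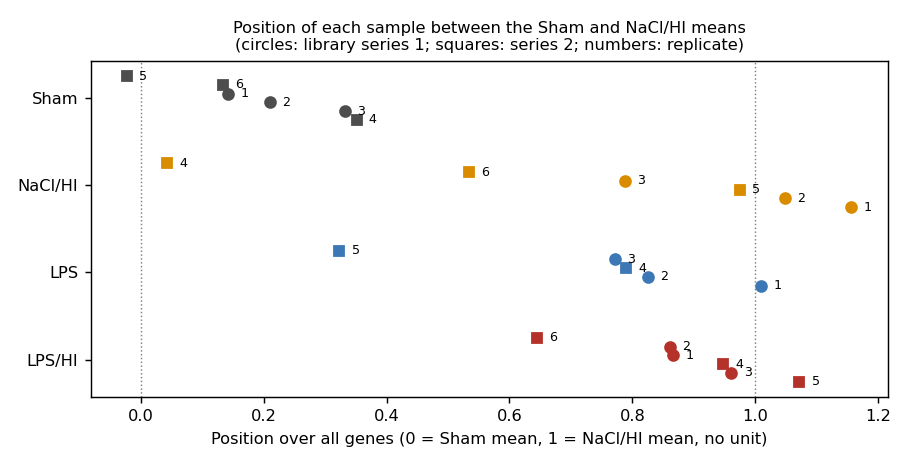
Position of all 23 samples on the axis from the Sham mean (0) to the NaCl/HI mean (1) over all genes, in rows by group, with circles for the first and squares for the second library series and replicate numbers beside the points. NaCl/HI replicate 4, at 0.0426, lies among the Sham samples; the other NaCl/HI samples lie between 0.533 and 1.16.

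NaCl/HI samples also lay farther from one another than Sham samples did, although not beyond the threshold. The root mean square distance of a sample to the mean of the others of its group was 0.165 ± 0.030 in NaCl/HI and 0.135 ± 0.013 in Sham (SD, n = 6 each; exact two-sided permutation test, p = 0.0519). Replicate 4 did not make this difference alone, since it was 0.0255 without that sample (exact permutation p = 0.0909) and 0.0302 with it. Without NaCl/HI replicate 1, 2 or 5, the 3 samples closest to their group mean, the exact permutation p was 0.013, 0.0476 and 0.0216, and without any other single sample it lay between 0.0693 and 0.147.

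Without replicate 4, the same limma fit called 13 genes higher (0.064%) and 1 lower (0.00493%), and by adjusted p alone 385 higher (1.9%) and 171 lower (0.842%). Because this sample was singled out for its values, the 5-against-6 fit describes the remaining samples and is no separate evidence. In the 385 higher genes, replicate 4 was above the Sham mean in 155 and above the Sham range in 52 (13.5%). In the 171 lower genes, it was on the side of the others in 84 and below the Sham range in 31 (18.1%). A further Sham sample would also lie outside the range of the others in some genes, and the share over all genes was not computed. These counts therefore do not show a partial difference in replicate 4. Its median difference from Sham was -0.022 in the higher genes and 0.0048 in the lower genes. Leaving out any other of the 12 samples gave 0 called genes.

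The largest difference among the 13 genes was that of Spp1, which encodes the secreted matrix protein osteopontin. It lay between 9.17 and 10.33 in Sham (median 9.98) and between 10.15 and 13.65 in NaCl/HI (median 12.16). Replicate 4 was the sample at 10.15, inside the Sham range, and the others began at 11.50. With all samples the difference was 2.27 (SE 0.40, adjusted p = 0.0658), or 4.81-fold, and without replicate 4 it was 2.66 (SE 0.31, adjusted p = 0.000409), or 6.31-fold.

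Lgals3, for the galactose-binding lectin galectin-3 that marks damaged lysosomes and phagocytosing microglia, ran from 9.36 to 10.23 in Sham (median 9.995) and from 9.75 to 11.95 in NaCl/HI (median 11.32). Its difference was 1.23 (SE 0.26, adjusted p = 0.0837) with all samples and 1.51 (SE 0.19, adjusted p = 0.00063) without replicate 4. Hk3, the hexokinase of myeloid cells, lay between 5.74 and 6.91 in Sham (median 6.40) and between 6.24 and 8.85 in NaCl/HI (median 8.21), and its difference of 1.59 (adjusted p = 0.0788) became 1.94 (adjusted p = 0.00063). In both genes replicate 4 was the lowest NaCl/HI sample and was inside the Sham range, whereas the other 5 NaCl/HI samples were above every Sham sample.

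The other genes called higher without replicate 4 had smaller differences. Among them, Kcnn4, a calcium-activated potassium channel of immune cells, differed by 1.46 (adjusted p = 0.0011), and Galnt6, which starts O-linked glycosylation, by 1.21 (adjusted p = 0.00092). Cd44, a receptor for hyaluronan and osteopontin, differed by 1.20 (adjusted p = 0.0111), having run from 8.61 to 9.57 in Sham (median 9.30) and from 9.09 to 11.01 in NaCl/HI (median 10.35). Mmp12, the macrophage elastase, differed by 1.46 (adjusted p = 0.0244), the heparan sulfate proteoglycan Sdc1 by 1.04 (adjusted p = 0.0265) and the glycoprotein Pdpn by 1.00 (adjusted p = 0.0337). Gpnmb itself reached 1.20 (SE 0.12, adjusted p = 2.75e-05).

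RGD1559482, LOC100911055 and the pseudogene Ppp1r14b-ps2 were also called higher, at 1.40, 1.15 and 1.25. The pseudogene Pilrb-ps6 was called lower, at -1.14 (adjusted p = 0.0471). Reads of pseudogenes can be shared with their parent genes, so these values are uncertain. Of the 14 genes, LOC100911055 alone had NaCl/HI values, from 5.85 to 6.59, that did not overlap with Sham, from 4.62 to 5.74, in all 12 samples.

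**Figure D3:**
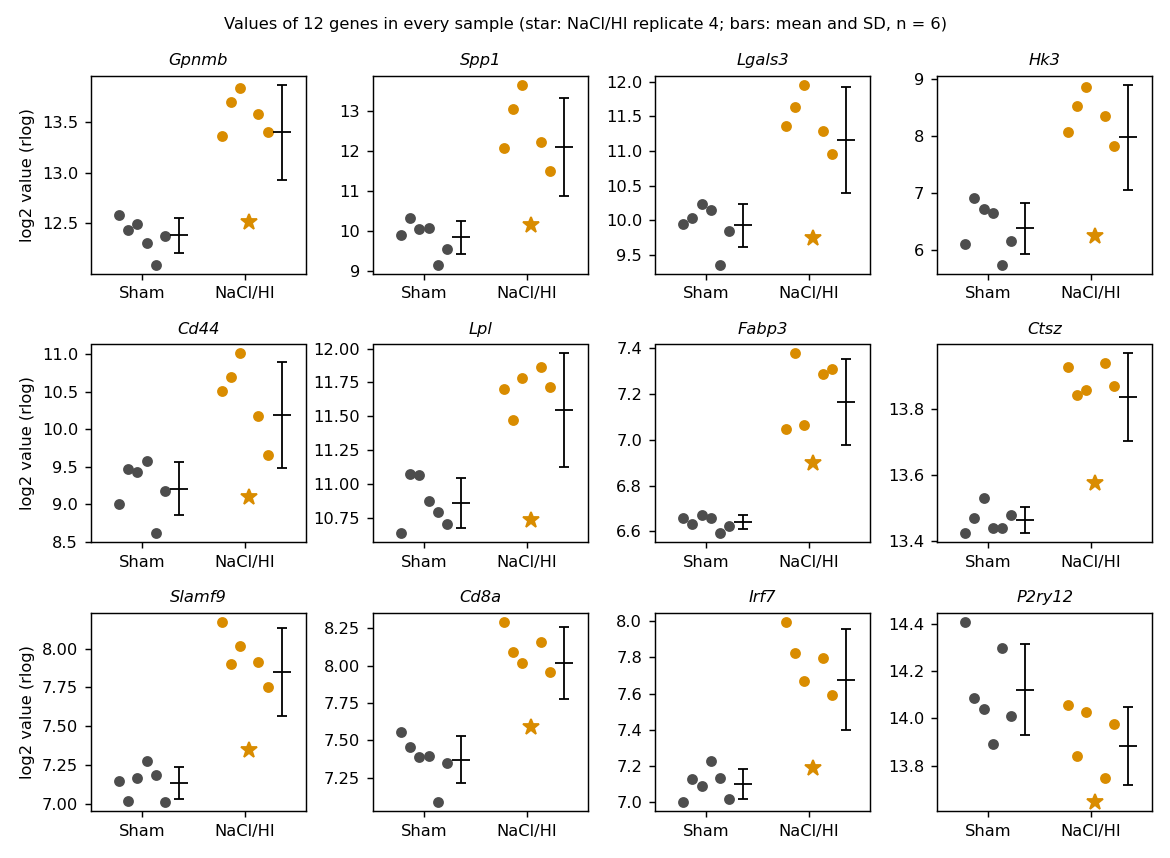
Log2 rlog values of 12 genes in the 6 Sham (grey) and 6 NaCl/HI (orange) samples, with the star marking NaCl/HI replicate 4 and bars giving the mean and SD of each group. In Gpnmb, Spp1, Lgals3, Hk3, Cd44 and Lpl the star lies among the Sham points, whereas in Fabp3, Ctsz, Slamf9 and Cd8a it lies between them and the other NaCl/HI points.

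The stretches upstream of these genes were searched for the binding letters of factors known from phagocytes, because the genes differed together. Of the 13 genes, 9 were found in the RefSeq promoter table (build GRCr8, 250 bases before to 50 after the transcript start). The AP-1 letters TGANTCA occurred in 2 of the 9, Gpnmb and Mmp12, and in 7.33% of all 33469 promoters. In both they began at position -87 from the start. The E-box CACGTG, the core of the CLEAR element of lysosomal genes, occurred in 1 (Mmp12, at -126; 6.42% of all promoters), the PU.1 letters GAGGAAGT in 0 (2.42%) and the interferon-stimulated response element (GAAA, any pair of bases, GAAA) in 1 (LOC100911055; 3.92%). Both strands were searched, and a match is only a description of the letters. The pair with AP-1 letters is shown 5′ to 3′ on the strand of the gene, with the matches in capitals.
Gpnmb promoter (GRCr8 chr4:79340878-79341177, plus strand): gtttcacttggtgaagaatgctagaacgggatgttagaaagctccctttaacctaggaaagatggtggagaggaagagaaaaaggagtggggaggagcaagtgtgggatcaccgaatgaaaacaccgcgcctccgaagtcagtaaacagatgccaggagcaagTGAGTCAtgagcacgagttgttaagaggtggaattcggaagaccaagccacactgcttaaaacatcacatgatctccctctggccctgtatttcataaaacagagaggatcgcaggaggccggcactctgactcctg
Mmp12 promoter (GRCr8 chr8:12866402-12866701, plus strand): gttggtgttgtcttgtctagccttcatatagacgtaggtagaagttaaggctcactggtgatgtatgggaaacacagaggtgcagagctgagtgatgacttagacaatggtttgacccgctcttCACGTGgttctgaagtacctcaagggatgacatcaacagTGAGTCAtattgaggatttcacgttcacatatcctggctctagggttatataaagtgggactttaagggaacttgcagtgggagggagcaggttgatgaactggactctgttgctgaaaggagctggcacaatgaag

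Some genes separated all 12 samples, replicate 4 included, with differences under the fold threshold. Of the named genes among them, Slamf9, a receptor of the SLAM family on macrophages, had the largest difference, below that of LOC100911055, which passed the fold threshold. It lay between 7.01 and 7.28 in Sham (median 7.16) and between 7.35 and 8.17 in NaCl/HI (median 7.91), a difference of 0.72 (SE 0.13, adjusted p = 0.0658). Replicate 4 was at 7.35, just above the highest Sham sample. Cd8a, which marks cytotoxic T cells and in rats is also found on activated microglia and macrophages, lay between 7.09 and 7.55 in Sham (median 7.39) and between 7.59 and 8.29 in NaCl/HI (median 8.06; difference 0.65, SE 0.13, adjusted p = 0.075).

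Tnfsf13b, the B cell survival factor BAFF, ran from 7.52 to 7.97 in Sham (median 7.60) and from 8.04 to 8.26 in NaCl/HI (median 8.22), a difference of 0.53 (adjusted p = 0.0788). Smaller differences separated the groups in the transporter genes Slc6a12 (0.43) and Slc47a1 (0.40), the collagen gene Col15a1 (0.45), the histone gene H2ac1 (0.40), Fat2 (0.38) and the pseudogene Rps2-ps6 (0.45), with adjusted p between 0.075 and 0.221. Apart from Fabp3, none of these 10 passed the adjusted threshold with all samples. Without replicate 4, 8 of the 10 passed it, and H2ac1 (adjusted p = 0.0612) and Rps2-ps6 (adjusted p = 0.123) did not.

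In the opposite direction, the largest differences of named genes without overlap were those of Cpne4 (-0.49), a calcium-dependent membrane-binding protein, and Impg1 (-0.45), known from the retinal matrix. Cry1, a repressor in the circadian clock, was between 8.54 and 8.66 in Sham (median 8.60) and between 8.02 and 8.43 in NaCl/HI (median 8.25), a difference of -0.36 (SE 0.07, adjusted p = 0.0788). Adamts9, a secreted protease of the matrix, lay between 9.08 and 9.35 in Sham (median 9.26) and between 8.77 and 8.998 in NaCl/HI (median 8.86; difference -0.36, adjusted p = 0.075). Ccn1, an immediate early matrix protein, differed by -0.31 (adjusted p = 0.164). Rasl11a, Chrnb4, Tbx3 and Sertad1 differed by -0.28 to -0.27. None of these genes passed the adjusted threshold with all samples, and Cry1, Adamts9, Impg1 and Rasl11a passed it without replicate 4 (adjusted p = 0.0119, 0.0166, 0.0376 and 0.036).

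Gene groups were then read from lists written by hand. For each list, the members with an unadjusted limma p under 0.05 were counted, and these counts are read against 7.33% higher and 7.47% lower over all genes, and the median difference against -0.0073 over all genes. Members that passed by adjusted p without replicate 4 are read against 1.9% higher and 0.842% lower, and members without overlap against 0.522% higher and 0.493% lower. Counts of members with a higher or lower mean are read against 9413 higher and 10888 lower means among the 20301 genes. The list of disease-associated microglia, of which 27 of 28 genes were measured, had the largest median of the 26 lists on biological processes, 0.195. In it, 15 genes were higher, 0 lower and 12 passed in neither direction. Gpnmb, Spp1 and Lgals3 belonged to it, as did Ctsd, the lysosomal protease cathepsin D (0.38, unadjusted p = 0.000155). Apoe, the lipid carrier that heads such lists, differed by 0.15 (unadjusted p = 0.0687) and was not among the 15.

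The mean of the 27 genes lay between 10.63 and 10.84 in Sham (median 10.79). In 5 NaCl/HI samples it lay between 11.16 and 11.34, and in replicate 4 at 10.76, within Sham. By adjusted p, 1 member passed with all samples (0.00985% of all genes) and 11 without replicate 4 (1.9% of all genes). The median was 0.201 in the first library series and 0.180 in the second.

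Genes of lipid export and storage (22 of 23 measured, median 0.141) were higher in 9 cases and lower in 0. Lpl, lipoprotein lipase, lay between 10.64 and 11.08 in Sham (median 10.84) and between 10.73 and 11.86 in NaCl/HI (median 11.71), a difference of 0.69 (unadjusted p = 0.000728). All NaCl/HI samples but replicate 4 were above the Sham range. The cholesterol exporters Abca1 (0.22, unadjusted p = 0.00149) and Abcg1 (0.25, unadjusted p = 0.00101), the lipid droplet coat protein Plin2 (0.42) and the fatty acid carrier Fabp5 (0.70) were higher as well. Genes of cholesterol synthesis mostly had lower means. Of 23 measured, 1 was higher and 7 lower, and 21 had lower means (median -0.111), among them the synthesis enzyme gene Hmgcs1 (-0.20) and Insig1 (-0.22), which restrains the pathway. Without replicate 4, 6 export and storage genes and 2 synthesis genes passed the adjusted threshold, the latter lower.

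Lysosomal genes (30 of 30 measured, median 0.0454) were higher in 11 cases and lower in 1. Ctsz, the lysosomal protease cathepsin Z, did not overlap between groups, at 13.42 to 13.53 in Sham (median 13.45) and 13.58 to 13.94 in NaCl/HI (median 13.86), with replicate 4 the lowest of its group (difference 0.37, SE 0.07, adjusted p = 0.0658). Cd63 differed by 0.24 (unadjusted p = 0.00311), whereas the membrane proteins Lamp1 and Lamp2 differed by -0.00077 and -0.14 and did not pass. Receptors of phagocytosis (24 of 26 measured, median 0.0427) were higher in 6 cases and lower in 1, with Fcgr3a (0.32), the scavenger receptor Msr1 (0.47) and the glucan receptor Clec7a (0.61) among the 6, while Trem2 and its adaptor Tyrobp differed by 0.06 and 0.05. The median of these receptors was 0.0721 in the first library series and 0.00067 in the second.

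Complement genes (20 of 23 measured) had a median of 0.0172. The receptor chains Itgax (0.79, unadjusted p = 0.000577) and Itgb2 (0.25, unadjusted p = 0.00104) and the central component C3 (0.71, unadjusted p = 0.000284) were among the 6 higher, 3 members were lower, and C1qa and C1qb, which start the classical pathway, differed by -0.04 and -0.09. C3 lay between 10.75 and 11.19 in Sham (median 11.08) and between 11.10 and 12.13 in NaCl/HI (median 11.78), with replicate 4 alone inside the Sham range. Genes of antigen presentation (21 of 22 measured, median 0.157) were higher in 6 cases and lower in 1. Tapbp (0.22) and Tap2 (0.25), which load peptides on class I molecules, were among the 6, and the class I genes RT1-A1 and RT1-A2, which have close copies in the rat, differed by -0.20 and -0.03.

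Interferon response genes (28 of 30 measured, median 0.0886) were higher in 11 cases and lower in 0. Irf7, the factor that drives interferon production, lay between 7.0001 and 7.23 in Sham (median 7.11) and between 7.19 and 7.995 in NaCl/HI (median 7.73), a difference of 0.58 (SE 0.12, adjusted p = 0.0837). Its replicate 4 lay in the Sham range and the other 5 above it. Isg15 differed by 0.59, Ifit3 by 0.64, Usp18 by 0.51 and Mx1 by 0.48, all products that follow interferon signalling. Without replicate 4, 5 members passed the adjusted threshold, and the mean of the list, 8.38 to 8.55 in Sham, was 8.43 in replicate 4 and 8.63 to 8.81 in the other NaCl/HI samples. Of the 11 higher genes, 7 were in the promoter table, and 4 of the 7 (Irf7, Ifit3, Oas1a and Bst2) held the interferon-stimulated response element on 1 of the strands, found in 3.92% of all promoters. Genes of this list were chosen for responding to interferon, so a share above that of all promoters says nothing about these samples. The other list members were not searched. Those of Irf7 and Ifit3 are given 5′ to 3′ on the strand of the gene, with this element and, in Ifit3, the AP-1 letters at -8 in capitals.
Irf7 promoter (GRCr8 chr1:205799974-205800273, minus strand): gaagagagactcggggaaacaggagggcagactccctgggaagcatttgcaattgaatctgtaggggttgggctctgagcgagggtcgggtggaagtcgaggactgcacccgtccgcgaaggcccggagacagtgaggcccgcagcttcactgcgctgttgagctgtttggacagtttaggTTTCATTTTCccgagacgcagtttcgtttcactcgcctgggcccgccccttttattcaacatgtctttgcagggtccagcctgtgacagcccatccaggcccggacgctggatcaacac
Ifit3 promoter (GRCr8 chr1:241527076-241527375, plus strand): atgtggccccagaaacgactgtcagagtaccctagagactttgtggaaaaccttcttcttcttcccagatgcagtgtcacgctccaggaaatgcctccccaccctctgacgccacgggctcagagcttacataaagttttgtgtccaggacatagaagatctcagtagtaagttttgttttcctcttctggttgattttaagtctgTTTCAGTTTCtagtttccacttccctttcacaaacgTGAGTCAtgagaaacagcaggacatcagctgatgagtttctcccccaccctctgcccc

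Genes of the cell cycle had slightly higher means in NaCl/HI. All 30 genes of the G1/S transition and DNA replication had a higher mean in NaCl/HI (median 0.194), 20 of them at an unadjusted p under 0.05 and 4 without overlap (0.522% of all genes). Ccne1, the cyclin that starts S phase, lay between 8.34 and 8.71 in Sham (median 8.52) and between 8.61 and 9.06 in NaCl/HI (median 8.91; difference 0.37, SE 0.08, adjusted p = 0.101). Mcm3, part of the replicative helicase, lay between 10.91 and 11.18 in Sham (median 11.06) and between 11.26 and 11.40 in NaCl/HI (median 11.34), without overlap and with a difference of 0.26. In this list replicate 4 was less apart from its group: the mean was 9.88 to 10.18 in Sham, 10.14 in replicate 4 and 10.17 to 10.27 in the others. Genes of G2 and mitosis (29 of 30 measured, median 0.140) all had higher means too, 9 at an unadjusted p under 0.05, but their median was 0.227 in the first library series and 0.0569 in the second. The list means of all 6 NaCl/HI samples, 10.55 to 10.69, lay inside the Sham range of 10.35 to 10.76. Mki67 and Top2a, which mark dividing cells, differed by 0.19 and 0.14 and did not pass.

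Of 34 measured genes of hypoxia and glycolysis (35 listed, median 0.0342), 11 were higher and 0 lower. The enzymes Pgk1 (0.29, unadjusted p = 0.000864), Aldoa (0.26, unadjusted p = 0.00103) and Eno1 (0.31, unadjusted p = 0.00123) were among them, as was the angiogenic factor Vegfa (0.39, unadjusted p = 0.0072), whereas the glucose transporter Slc2a1 differed by -0.13. Vegfa differed by 0.75 in the first library series and by 0.04 in the second. Nuclear genes of the respiratory chain (29 of 30 measured, median 0.122) were higher in 14 cases and lower in 0, each by little, such as Sdhb at 0.14 and Uqcrb at 0.17. Ribosomal protein genes (27 of 30 measured, median 0.0767) were higher in 2 cases.

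Chemokine genes (25 of 26 measured, median 0.0408) were higher in 8 cases and lower in 1. Ccl6 (0.56, unadjusted p = 0.000541) and Ccl17 (0.50, unadjusted p = 0.0043) passed the adjusted threshold without replicate 4. Ccl12, a ligand of Ccr2, ran from 7.16 to 9.78 in Sham (median 9.54) and from 9.58 to 10.97 in NaCl/HI (median 9.84; difference 0.99, unadjusted p = 0.0165) and the ranges overlapped. Ccl2 and Ccl3 differed by -0.13 and -0.08. Inflammatory cytokines (24 of 24 measured, median -0.0422) were higher in 1 case and lower in 2. The pyrogenic cytokines Il1b and Il1a differed by -0.12 and -0.20 and did not pass. Il6 differed by -0.21 (unadjusted p = 0.0106), Il10 by -0.28 (unadjusted p = 0.042; 0.02 in the second library series, on the other side of 0), and Il1rn, the natural antagonist of interleukin-1, by 0.35 (unadjusted p = 0.0447). Feedback genes of NF-κB (24 measured, median -0.0916) were higher in 1 case (Cd14, 0.36) and lower in 2.

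Immediate early genes, which cells induce within minutes of a stimulus or of handling, had the lowest median of the biological lists, -0.187. Of 19 measured of 20 listed, 10 were lower and 0 higher. Klf4 differed by -0.28 (unadjusted p = 0.00334), Egr1 by -0.20 and Klf6 by -0.16, while Fos and Fosb differed by -0.11 and -0.17 and did not pass. The median was -0.281 in the first library series and -0.0697 in the second. Of 19 glucocorticoid-responsive genes measured, 18 had lower means and 3 passed, namely Lcn2, Mt1 and Klf9 at -0.60, -0.33 and -0.22, and the median was -0.329 in the first library series and -0.0147 in the second. Genes of the unfolded protein and integrated stress responses (24 measured) were lower in 7 cases, such as Atf4 (-0.21) and Ddit3 (-0.24), and higher in 2, and p53 and apoptosis genes (19 of 20 measured) were lower in 4, such as the BH3-only gene Pmaip1 (-0.24, without overlap), and higher in 0.

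Genes tied to repair and alternative activation (23 of 25 measured, median 0.149) were higher in 10 cases and lower in 2. Their median was 0.125 in the first library series and 0.0155 in the second, and the list means of the 3 NaCl/HI samples of the second series, 9.28 to 9.44, lay inside the Sham range of 9.10 to 9.46. Mmp12 and Msr1 belonged to this list, as did the growth factor gene Pdgfa (0.54, unadjusted p = 0.00379). Genes of matrix and angiogenesis (26 measured, median 0.0687, with 0.108 in the first library series and 0.0259 in the second) were higher in 9 cases and lower in 0. Among them, Timp1, an inhibitor of matrix proteases, lay between 8.38 and 8.77 in Sham (median 8.63) and between 8.75 and 9.31 in NaCl/HI (median 9.23; difference 0.57, adjusted p = 0.0658), and Plaur, the urokinase receptor, differed by 0.70. Homeostatic microglial genes (29 of 30 measured, median -0.0446) were higher in 1 case and lower in 2, the latter P2ry12 (-0.24, unadjusted p = 0.0477) and the crystallin gene Crybb1 (-0.26, unadjusted p = 0.0345). Purinergic genes (18 measured) were higher in 2 cases, P2ry2 (0.51) and Ada (0.18), and lower in 1. Genes of iron and NRF2 were higher and lower in 3 of 22 cases each, and heat shock genes in 3 and 1 of 16.

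**Figure D4:**
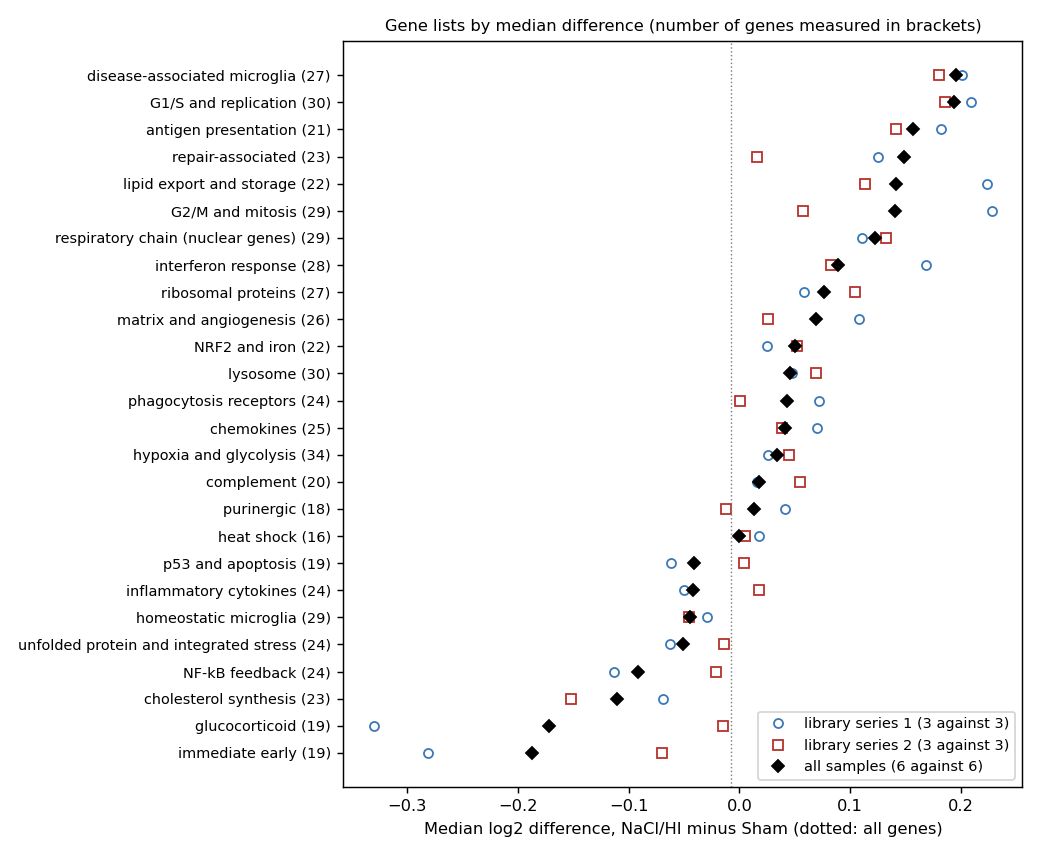
Median log2 difference, NaCl/HI minus Sham, of the measured members of 26 hand-written gene lists (number measured in brackets), for all samples (diamonds), library series 1 (circles) and library series 2 (squares), with a dotted line at the median of all genes, -0.0073. Disease-associated microglia and G1/S genes have medians of 0.195 and 0.194 with both series near them, whereas glucocorticoid and immediate early genes lie at -0.329 and -0.281 in series 1 and at -0.0147 and -0.0697 in series 2.

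Markers of other cells that such a bead preparation can hold were read in the same way, since fewer cells of a type and less RNA per cell cannot be told apart in bulk samples. Neutrophil markers (22 measured) were higher in 0 and lower in 2 cases, and their mean lay between 5.78 and 6.21 in Sham and between 5.68 and 6.18 in NaCl/HI. Their leading genes S100a8 and S100a9 differed by 0.04 and 0.16. Monocyte markers (15 of 16 measured, median 0.278) were higher in 4 cases: Cd44, F10 (0.28), S100a4 (0.43) and Ly6c (0.59), while Ccr2 differed by 0.23 (unadjusted p = 0.201). The median of the list was 0.415 in the first library series and 0.0348 in the second. Their mean lay between 8.78 and 9.24 in Sham and 8.98 and 9.71 in NaCl/HI, and their part in the difference of Cd44 and of the disease-associated list was not tested.

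Border macrophage markers (14 measured) were lower in 2 cases, Cd163 (-0.52) and Lyve1 (-0.26). T, NK and B cell markers (16 of 20 measured) were higher in Cd8a and lower in Cd3e (-0.20), with 8 higher and 8 lower means. Their list mean was far below the library medians, at 4.03 to 4.10 in Sham and 4.07 to 4.19 in NaCl/HI. The cell source of Cd8a was not tested. Mast cell markers (9 of 10 measured, median -0.313) had lower means in all 9 cases and passed in 4, with a median of -0.766 in the first library series and 0.0061 in the second. Erythrocyte (10 of 13 measured) and platelet markers (8 of 10 measured) passed in 0 cases either way.

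Mural and fibroblast markers (20 measured, median 0.116) were higher in 6 cases, such as Col1a1 (0.40, unadjusted p = 0.00105) and Myh11 (0.39), and endothelial markers (18 of 20 measured, median -0.0941) lower in 3, such as Abcb1a (-0.19). Among astrocyte markers (16 measured), Gfap alone was higher, at 10.18 to 10.998 in Sham (median 10.66) and 10.55 to 12.19 in NaCl/HI (median 11.47; difference 0.74, unadjusted p = 0.00519), and Aqp4 differed by 0.16. Oligodendrocyte (18 measured) and neuronal markers (21 measured) passed in 1 and 2 cases, the latter lower, and markers of choroid plexus and ependyma (13 of 14 measured) in 0. The mean of the oligodendrocyte markers was 10.28 in NaCl/HI replicate 6, beside 8.86 to 9.62 in Sham and 8.92 to 9.46 in the other NaCl/HI samples, and the list median was -0.0546 in the first library series and 0.409 in the second. The part of these markers in other results was not tested.

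Because Sham samples were entire brains and NaCl/HI samples hemispheres, genes of midline and hindbrain tissue were examined too. Pineal genes had lower means in NaCl/HI in 12 of 12 cases (median -0.218) and were lower at an unadjusted p under 0.05 in 5, among them Sag (-0.40) and Crx (-0.45). The list mean was 3.22 to 3.80 in Sham and 2.99 to 3.33 in NaCl/HI. Hindbrain and cerebellar genes (20 of 29 measured, median 0.0285) passed in 0 cases and forebrain genes (19 of 20 measured, median -0.0621) in 1, Emx2, which was lower. The hindbrain list mean was only 2.19 to 2.27 in Sham and 2.19 to 2.33 in NaCl/HI. The transformation draws such weak values together, so these genes say little about the tissue taken.

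The library series each held 3 Sham and 3 NaCl/HI samples, and the labels do not call them batches. Differences from both series, which share no sample, had the same sign in 61.4% of genes, with a correlation across genes of 0.361 (Pearson) and 0.307 (Spearman). The fits within 1 series did not lower the residual degrees of freedom, unlike the main fit, so their counts and p-values cannot be set directly against it. Within the first series 29 genes were called higher (0.143%) and 1 lower (0.00493%). Within the second, which holds replicate 4, limma called 0 in either direction, with 424 higher (2.09%) and 544 lower (2.68%) at an unadjusted p under 0.05. Spp1 differed by 2.83 in the first and 1.70 in the second series, and by 2.27 in the second without replicate 4. For Gpnmb, the second series without replicate 4 gave 1.23 beside 1.13 in the first. Mmp12 differed by 2.10 and 0.28, and RGD1559482 by 2.15 and 0.25.

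HI was also applied after LPS, and LPS/HI against LPS shares no sample with NaCl/HI against Sham, although it sets hemispheres of 2 pups against entire brains in the same way. The 14 genes called without replicate 4 differed in the same direction in LPS/HI against LPS in all 14 cases, with a median of 0.43 beside 1.08 in NaCl/HI against Sham over all samples. None of the 14 passed the adjusted threshold there, at a background of 1.22% higher and 0.719% lower over all genes. Gpnmb differed by 0.18 (SE 0.17, adjusted p = 0.697) and Spp1 by 0.21 (SE 0.42, adjusted p = 0.878). The difference between both HI effects was -0.84 for Gpnmb (limma interaction, adjusted p = 0.0854) and -2.06 for Spp1 (adjusted p = 0.0859), and without replicate 4 it passed for Gpnmb (adjusted p = 0.00854), Spp1 (adjusted p = 0.0105) and Lgals3 (adjusted p = 0.0389). These genes had been chosen for a large difference between NaCl/HI and Sham, a choice that by itself favours a smaller value in the other comparison.

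In the wider sets no such shared direction was seen. Of the 385 genes higher in NaCl/HI without replicate 4 by adjusted p, 191 were higher on average after LPS/HI than after LPS alone, and 7 passed the adjusted threshold there. Of the 171 lower genes, 85 had a lower mean and 2 passed. Their median differences after LPS were -0.0020 and 0.00043, beside 0.0016 over all genes. Fabp3, in contrast, differed by 0.43 after LPS (SE 0.09, adjusted p = 0.0156), and the difference of both effects was -0.09 (interaction, adjusted p = 0.784). Slc47a1 (0.34, adjusted p = 0.0385) and Lpl (0.80, adjusted p = 0.0277) passed there as well. The lists went either way in LPS/HI against LPS. Disease-associated microglia and repair genes had medians of 0.169 and 0.283, whereas G1/S and G2/M genes had -0.0205 and -0.302.

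**Figure D5:**
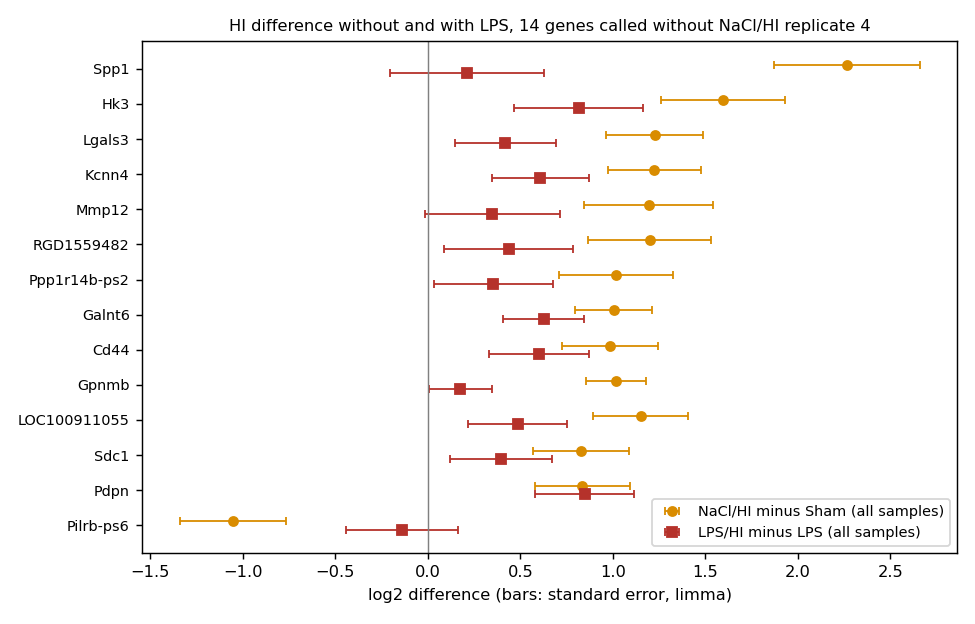
Log2 difference with its standard error (limma, all samples) for the 14 genes called without NaCl/HI replicate 4, in NaCl/HI minus Sham (orange circles) and LPS/HI minus LPS (red squares). All 14 lie on the same side of 0 in both; Pdpn has nearly equal values, 0.84 and 0.85, and Spp1 the widest gap, 2.27 and 0.21.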

How the data were processed

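RNA sequencing of microglia was analysed in 6 NaCl/HI and 6 Sham samples, beside 6 LPS/HI and 5 LPS samples, with groups taken from the sample titles. The authors quantified reads with kallisto 0.48.0 on mRatBN7.2, imported the estimates into DESeq2, applied its rlog transformation and removed 3 surrogate variables, and the deposited values are the resulting log2 values of 20301 genes. No counts were analysed, so the depth per sample is unknown, no count test was run, and the precision of weakly expressed genes cannot be given. Removal of the variables took variance within groups away, which can lower p-values, those of permutation tests included, and its effect on the group means was not tested.

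Groups were compared in 1 fit of 23 samples with limma 3.58.1 (R 4.3.3), with a variance trend and with the residual degrees of freedom lowered from 19 to 16, since the values spanned 16 dimensions after group means were subtracted. In the fits within 1 library series and in that of only the 12 samples compared, the residual degrees of freedom were not lowered. Distances of samples were compared with the exact two-sided permutation test. No gene was filtered out. On simulated tables with 200 changed genes, 100% of log2 changes of 1.5 and of 2.5 were recovered, and false genes made up 3.38% to 5.66% of calls by adjusted p. These changes exceeded nearly all differences seen here, and the simulated spread was the same in every group. The recovery therefore says nothing about smaller differences or about a sample such as NaCl/HI replicate 4. The genes named were the called genes, up to 10 without overlap in each direction by difference, and of each list the first 2 members and up to 3 with the smallest p, and genes with an identifier only were skipped except when called; 3 genes that this rule names are not reported here. Promoters came from the RefSeq table of GRCr8, another build than that of the values, and 18625 symbols occur in its gene table. The samples compared, the 43 gene lists, the tests and the alternatives were chosen with earlier results of these data known. Replicate numbers did not pair the samples: the deviations of same-numbered NaCl/HI and Sham samples correlated between -0.291 and 0.247. Values were handled in Python 3.11.15 (pandas 2.3.3, scipy 1.17.1, numpy 2.4.6, matplotlib 3.10.9).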

Additional observations from a re-analysis of the deposited data

Results flagged for a closer look

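Samples that stood apart within a group were sought with Dixon's test in 158 groups of values, those of 34 named genes, of 43 list means and of the position and the distance of each sample over all genes, each in Sham and in NaCl/HI. It marked 11 of them. Chance marks about 1 in 20 groups that were not chosen by their values. These genes were named for their values, partly in the fit without replicate 4, so that rate is no measure here. NaCl/HI replicate 4 was marked 2 times, in Gpnmb (12.5) and in the mean of disease-associated microglia genes (10.8), both times as the low sample. Gpnmb belongs to that list, so the 2 marks are not separate. NaCl/HI replicate 3 stood apart in Rps2-ps6 (5.72, high), Cpne4 (6.97, low) and the mean of purinergic genes (10.3, high). Among Sham samples, replicate 5 was high in Cpne4 (8.23) and low in the means of disease-associated microglia genes (10.6) and of lipid export and storage genes (9.85). Sham replicate 6 was high in Impg1 (4.86) and in the mean of pineal genes (3.80), and Sham replicate 3 in Sertad1 (8.32).

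Among the genes named for their difference or their separation of the groups, the effect of HI differed with and without LPS in 4 by the limma interaction contrast of all samples. The effect with LPS minus that without was -0.88 in Tnfsf13b (adjusted p = 0.0157), -0.61 in Slc6a12 (adjusted p = 0.0276), 0.68 in Adamts9 (adjusted p = 0.0101) and 0.67 in Ccn1 (adjusted p = 0.027). The LPS/HI minus LPS difference had the opposite sign from that of NaCl/HI minus Sham in each, but passed the limma adjusted threshold in Adamts9 alone (0.32, SE 0.07, adjusted p = 0.0288). It was -0.35 in Tnfsf13b (SE 0.11, adjusted p = 0.103), -0.18 in Slc6a12 (SE 0.09, adjusted p = 0.354) and 0.35 in Ccn1 (SE 0.10, adjusted p = 0.0575). All 4 had been named for their difference between NaCl/HI and Sham.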

How the results depend on the processing

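The count of genes called higher, 1 with all samples, was 7 with the residual degrees of freedom not lowered, 0 without a variance trend, with robust variances, within library series 2 and by the exact Wilcoxon test, 2 with only the 12 samples compared, with median centring, with quantile normalization and without a fold threshold, 5 with library series as a block, 29 within library series 1 and 11 with array weights. Genes called lower were 1 within series 1 and with array weights. The fits within a series and of only the 12 samples also kept the degrees of freedom that were not lowered. By adjusted p alone, the 2 higher genes became 98 with the degrees of freedom not lowered, 0 without a trend, with robust variances, within series 2 and by the Wilcoxon test, 20 with only the 12 samples, 8 with the series block and with quantile normalization, 105 within series 1, 6 with median centring and 448 with array weights. The lower ones, 0 in the main fit, were 50, 6, 21, 2 and 204 with the degrees of freedom not lowered, only the 12 samples, series 1, quantile normalization and array weights. Unadjusted, 424 genes were higher and 544 lower within series 2, and 2315 lower with array weights. The smallest adjusted p of the Wilcoxon test was 0.213, so it could call no gene here. The array weights gave LPS/HI replicate 2, a library close to its group mean, nearly all of the weight of its group, and their estimation stopped before it converged.

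With each library left out in turn, 0 to 13 genes were called higher and 0 to 1 lower, 0 to 385 and 0 to 171 passed by adjusted p alone, 1166 to 2076 and 1091 to 2186 by unadjusted p, 121 to 742 and 118 to 455 did not overlap, and the gap between the distances of NaCl/HI and Sham samples was 0.0233 to 0.0446. The highest of each of these gene counts came without NaCl/HI replicate 4, and the largest gap in distance without NaCl/HI replicate 1. The cause of these shifts was not tested. Within series 2, the differences of Il10 (0.0177) and Tpsb2 (0.0061) changed sign. With the mean in place of the median, the complement list moved to 0.0965 and the list of NRF2 and iron to -0.023. With the replicate block, 1 gene, Gpnmb, was called and was the 1 that passed by adjusted p alone, while Fabp3 did not (adjusted p = 0.0844), with 1243 higher and 1154 lower by unadjusted p; of 6 same-numbered pairs, 1 correlated above 0.1 and 0 Sham samples correlated best with their own number, so the numbers do not pair the samples.

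The added fit without replicate 4, chosen after seeing the data, made the difference between HI effects pass for Spp1, Gpnmb, Lgals3, Slamf9 and Cd8a. Depth limits the weakly expressed genes, whose rlog values are drawn together, but could not be quantified.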

Other observations

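Y-linked genes varied widely between samples in both groups. The pups were of both sexes, and the labels do not give the sex of each sample. Kdm5d lay between 4.31 and 7.96 in Sham and between 4.75 and 10.2 in NaCl/HI, with the difference of 1.39 not passing the adjusted threshold (limma adjusted p = 0.448). Uty differed by 1.01 and Eif2s3y by 1.35. These genes, singled out after their values were seen, are among the 24 with a fold change above 2 at any p. NaCl/HI replicate 4 had 5.94 for Kdm5d, inside the Sham range.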
